A study of Mus musculus with 44 samples.

Results

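The comparison set 4 plates of single cells from mouse small intestinal organoids given RANKL with CSRM617 against 6 plates from organoids given RANKL alone, all taken on day 2 or day 3 of treatment. Its members are the 9230 genes found in both raw count tables, of which 8766 passed a filter on low counts and were tested. The count table of RANKL+CSRM617 wells holds 9257 genes and that of RANKL wells 21099, and why the first is shorter is not given in the sources used here. Among the genes of the RANKL table alone, 545 reached 10 CPM on days 2 and 3, among them the mitosis gene Ube2c at 313 CPM, so the gene lists are counted without such genes. Wells with at least 1000 UMIs (unique molecular identifiers, each counting a single RNA molecule) were kept, and their counts were summed per plate. This left 570 RANKL+CSRM617 wells and 1508 RANKL wells, 2078 of the 8231 kept in the series, and 10 of its 44 plates.

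All organoids came from a single line of a female mouse, labelled line26 wild type, with the genotype Lgr5GFPDTR/+. They grew in ENR medium, which supplies EGF, noggin and R-spondin, and every group had the same priming: 3 µM CHIR99021, a GSK3 inhibitor, with 1.5 mM valproic acid for 3 days, then 1 day of ENR alone. The RANKL+CSRM617 group then received 100 ng/mL RANKL and 40 µM CSRM617, an inhibitor of the transcription factor ONECUT2, with 2 plates on day 2 and 2 on day 3. The RANKL group received 100 ng/mL RANKL alone, with 3 plates on each of these days. Day 0 plates, 2 labelled RANKL+CSRM617 with 345 wells and 3 labelled RANKL with 481 wells, gave the difference between the arms at the start. RANKL day 0 plate 2 held only 26 of these wells, beside 229 and 226 on plates 1 and 3. The arms are separate series of plates, and whether plates stem from different cultures is not stated in the labels, so a p-value here covers only the variation among plates, which may be technical.

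RANKL is a TNF family cytokine made by stromal cells beneath lymphoid follicles of the gut. It binds RANK, encoded by Tnfrsf11a, on epithelial cells, activates NF-kappaB, and induces Spib, whose product drives the maturation of microfold (M) cells, the epithelial cells that carry antigen to the lymphoid tissue below. ONECUT2 is a homeobox factor of the intestinal epithelium, and the study's title asks what it does for enterocytes and M cells under RANKL.

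Depth differed between the arms. Plates of days 2 and 3 held 92 to 197 wells with RANKL+CSRM617 and 228 to 278 with RANKL, with 324061 to 750116 and 1245252 to 1502073 UMIs per plate. The median UMIs per well ran from 2206.5 to 3685 and from 4740 to 6507.5. The 6 epithelial markers (Cdh1, Epcam, Krt8, Krt18, Krt19, Vil1) summed to 3136 to 4086 CPM in the 4 RANKL+CSRM617 plates and 3189 to 4028 CPM in the 6 RANKL plates. Among 5 immune markers only Cd74 was in both tables, at 0 to 40.1 CPM and 6.52 to 17.4 CPM. None of 6 stromal and endothelial markers was in both tables. A gene model named Gm10800 took 1.12% to 2.84% of UMIs with RANKL+CSRM617 and 0.0242% to 0.732% with RANKL on days 2 and 3. The fit was repeated without it and 6 like models.

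On days 2 and 3, 1072 of the 8766 tested genes were higher with RANKL+CSRM617, which is 12.2%, and 1078 were lower, 12.3% (edgeR quasi-likelihood test, Benjamini-Hochberg adjusted p at or under 0.05). The values compared are TMM-scaled CPM (UMIs of a gene scaled to a common plate total), and log2 differences are RANKL+CSRM617 minus RANKL. In 1651 genes, 18.8%, the call stood and the plates of the arms did not overlap on either day. The arms already differed on day 0, in 241 genes that were higher (2.75%) and 620 that were lower (7.07%) on the RANKL+CSRM617 plates, and 415 genes were called in the same direction on day 0 and on days 2 and 3. For this reason the difference on days 2 and 3 was tested against that on day 0 in the same fit. This change from day 0 passed upward in 367 genes (4.19%) and downward in 224 (2.56%). Both tests were passed by 250 higher genes (2.85%) and 134 lower genes (1.53%), shown in red in the plot of day 0 against days 2 and 3. The count of changes from day 0 rests on few day 0 plates: it was 357 and 276 without RANKL+CSRM617 day 0 plates 1 and 2, 388 without RANKL day 0 plate 3, and 362 without RANKL+CSRM617 day 3 plate 2, against 591 with all plates. Plate sums cannot tell fewer cells of a type apart from less of an RNA per cell.

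**Figure D1:**
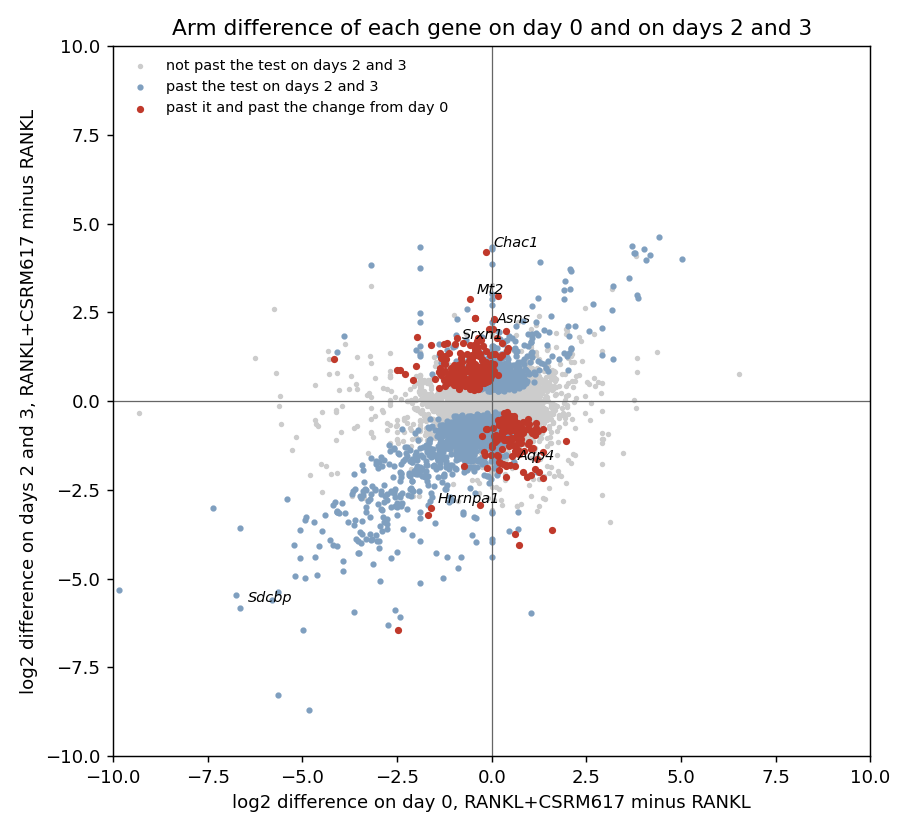
Log2 difference between the arms (RANKL+CSRM617 minus RANKL) of each tested gene on day 0 (x axis) and on days 2 and 3 (y axis), from the edgeR fit. The 250 higher and 134 lower genes past both tests are red, genes past the test on days 2 and 3 alone are blue, and genes such as Sdcbp at the lower left were far apart on day 0 too.

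Metallothioneins, small cysteine-rich proteins that bind zinc and copper and are induced by metals and stress, were among the genes furthest apart. Mt1 had 1129.6 and 1162 CPM on day 2 and 3986 and 3514 CPM on day 3 with RANKL+CSRM617, against 238, 273 and 241 CPM and 617, 787 and 701 CPM with RANKL. Mt2 had 1349.5 and 1306 CPM and 3309 and 3444 CPM with RANKL+CSRM617, against 125, 169.5 and 123 CPM and 577, 649.9 and 595 CPM with RANKL. On both days every RANKL+CSRM617 plate lay above every RANKL plate, and both arms were higher on day 3 than on day 2. The day 2 plates of both arms lay under those of day 0. The day 0 plates were close for Mt1, at 2191 and 2009 CPM for RANKL+CSRM617 and 2035, 1823 and 2193 CPM for RANKL. For Mt2 they were at 1669 and 1407 CPM and 2244, 2177 and 2493 CPM, so here the RANKL+CSRM617 plates were the lower ones. The log2 difference on days 2 and 3 was 2.30 ± 0.22 for Mt1 (SE, edgeR adjusted p = 1.66e-10) and 2.86 ± 0.19 for Mt2 (adjusted p = 5.60e-15), beside 0.05 and -0.58 on day 0. The change from day 0 was 2.25 ± 0.39 (adjusted p = 0.000312) and 3.45 ± 0.34 (adjusted p = 1.18e-08).

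The start regions of Mt1, Mt2 and Asns are printed because these genes were set far apart between the arms and carry known response elements. Each sequence runs from 250 bases before to 50 after the start site, from RefSeq on GRCm38.p6, with the gene's strand read 5′ to 3′. Mt1 lies on the plus strand of chromosome 8, and its window is chr8:94178839-94179138. Mt2 lies next to it on the same strand, at chr8:94172368-94172667. Asns lies on the minus strand of chromosome 6, at chr6:7693160-7693459. Capitals mark the core of the metal response element, TGCACNC or TGCGCNC, in Mt1 and Mt2, and the C/EBP-ATF composite core, TGATGNAA, in Asns, searched on both strands.
Mt1: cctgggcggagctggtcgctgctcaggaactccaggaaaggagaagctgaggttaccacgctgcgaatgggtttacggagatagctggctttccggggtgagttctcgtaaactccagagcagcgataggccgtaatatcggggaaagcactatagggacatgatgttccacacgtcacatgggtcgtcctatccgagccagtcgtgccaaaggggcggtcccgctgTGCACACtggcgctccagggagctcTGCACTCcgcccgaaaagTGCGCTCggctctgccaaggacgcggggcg
Mt2: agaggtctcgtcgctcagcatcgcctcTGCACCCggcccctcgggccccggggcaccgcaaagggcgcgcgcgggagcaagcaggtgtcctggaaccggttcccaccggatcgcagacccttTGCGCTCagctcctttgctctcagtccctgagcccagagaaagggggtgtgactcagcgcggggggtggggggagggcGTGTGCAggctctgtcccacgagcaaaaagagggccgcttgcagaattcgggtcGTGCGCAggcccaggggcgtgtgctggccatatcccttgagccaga
Asns: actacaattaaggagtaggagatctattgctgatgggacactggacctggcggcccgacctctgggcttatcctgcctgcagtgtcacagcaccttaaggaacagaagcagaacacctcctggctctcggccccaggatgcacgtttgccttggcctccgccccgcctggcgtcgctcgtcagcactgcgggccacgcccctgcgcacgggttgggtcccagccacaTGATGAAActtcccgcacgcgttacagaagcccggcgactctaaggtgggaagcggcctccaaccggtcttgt
The Mt1 window held 3 metal cores and the Mt2 window 4, and the Asns window held 1 composite core. A window was found for 202 of the 250 higher and 104 of the 134 lower genes past both tests. The metal core was in 28.83% of windows of the higher genes, 37.4% of the lower genes, 35.96% of all tested genes and 25.7% of all 32851 windows. The composite core was in 5.11%, 0.81%, 2.12% and 3.97% of these windows, and the antioxidant core TGACNNNGC in 15.33%, 15.45%, 14.45% and 12.39%. The ONECUT core, ATCAAT or ATCGAT, was in 6.2%, 4.07%, 4.8% and 8.4%. These matches are descriptions of short letter runs and not bound sites.

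**Figure D2:**
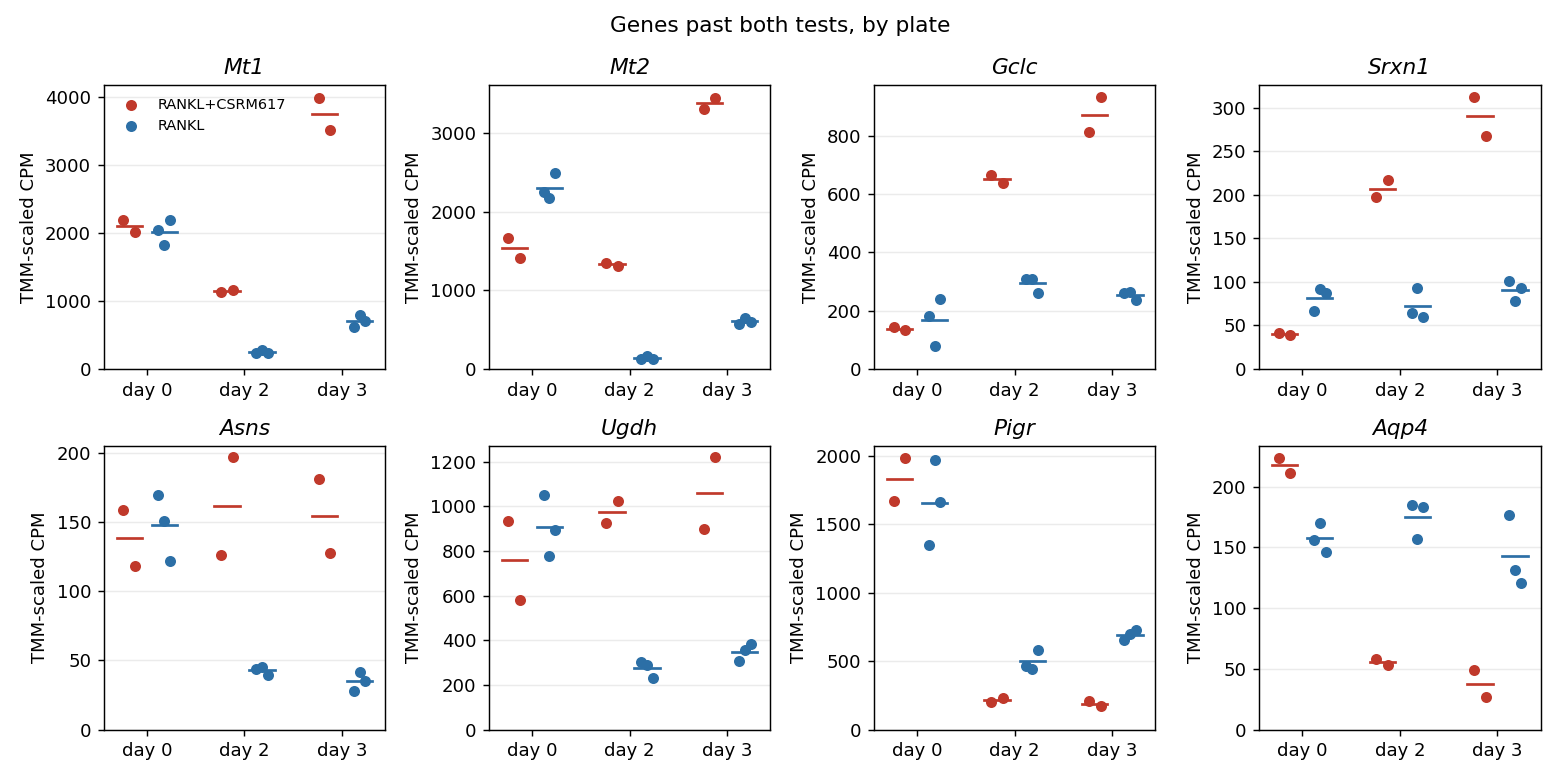
TMM-scaled CPM (y axis) of 8 genes past both tests on day 0, day 2 and day 3 (x axis), with 1 point per plate, a line at the mean, RANKL+CSRM617 in red and RANKL in blue. Mt1, Mt2, Gclc, Srxn1, Asns and Ugdh were higher and Pigr and Aqp4 lower in all 4 RANKL+CSRM617 plates of days 2 and 3.

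Several genes of amino acid supply and the integrated stress response, in which the factor ATF4 raises amino acid synthesis when translation is curbed, were higher with RANKL+CSRM617. Of 17 tested genes of endoplasmic reticulum and integrated stress, 10 rose and none fell, beside 12.2% and 12.3% of all tested genes. Both tests were passed upward by 5, beside 2.85% of all tested genes. The median log2 difference was 0.80 on days 2 and 3 and 0.12 on day 0. Without RANKL+CSRM617 day 3 plate 2, 6 rose and 1 fell, and 1 fell without any 1 of RANKL day 2 plate 2, RANKL+CSRM617 day 0 plate 1 or 2, or RANKL+CSRM617 day 2 plate 1. Asns, which makes asparagine, had 126 and 197 CPM on day 2 and 181 and 127 CPM on day 3 with RANKL+CSRM617, against 44.0, 45.5 and 39.1 CPM and 27.96, 41.4 and 35.4 CPM with RANKL. The arms did not overlap, whereas on day 0 they did, at 159 and 118 CPM and 169.8, 151 and 122 CPM. The RANKL+CSRM617 plates of days 2 and 3 lay near the day 0 levels and the RANKL plates under them. Its log2 difference was 2.04 ± 0.18 (adjusted p = 1.14e-11), -0.06 on day 0, and the change from day 0 was 2.10 ± 0.29 (adjusted p = 1.00e-05).

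Chac1, which degrades glutathione and is a target of this response, had 20.2 and 23.9 CPM and 48.9 and 30.2 CPM with RANKL+CSRM617 on days 2 and 3, against 0.862, 1.87 and 0.675 CPM and 4.66, 0 and 0.680 CPM with RANKL. Every RANKL+CSRM617 plate was above every RANKL plate, and a single RANKL plate had no UMI of it. Its log2 difference was 4.19 ± 0.48 (adjusted p = 5.42e-08), -0.14 on day 0, with a change from day 0 of 4.33 ± 0.74 (adjusted p = 0.000423), and without RANKL day 3 plate 1 the 2 values were 5.17 and 5.31. Mthfd2, a mitochondrial enzyme of folate metabolism, averaged 125 ± 28.01 CPM with RANKL+CSRM617 (SD, n = 4) and 31.9 ± 11.1 CPM with RANKL (SD, n = 6), a log2 difference of 1.98 ± 0.20 (adjusted p = 6.76e-10), 0.37 on day 0, and its change from day 0 was 1.61 ± 0.33 (adjusted p = 0.00162). Psat1, of serine synthesis, averaged 294 ± 82.9 CPM and 109.7 ± 44.2 CPM, a difference of 1.49 ± 0.13 (adjusted p = 2.86e-11), 0.43 on day 0. Its change from day 0, 1.05 ± 0.23 (adjusted p = 0.00269), did not pass when wells were thinned to 1000 UMIs (adjusted p = 0.0616, range over all alternatives 0.000383 to 0.0616). Herpud1, of endoplasmic reticulum quality control, averaged 99.7 ± 27.8 CPM and 42.4 ± 8.61 CPM, a difference of 1.26 ± 0.18 (adjusted p = 1.59e-06) beside -0.34 on day 0, and a change from day 0 of 1.60 ± 0.33 (adjusted p = 0.00173). The transcript of ATF4 itself, Atf4, was higher by 0.98 ± 0.16 (adjusted p = 1.57e-05), 0.12 on day 0, and its change from day 0, 0.86 ± 0.28, did not pass (adjusted p = 0.0602).

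Targets of NRF2, the factor that answers oxidative and electrophilic stress, and enzymes that handle foreign compounds were counted in 1 list. Of its 22 tested members 12 rose and none fell, beside 12.2% and 12.3% of all tested genes, 20 had a positive difference, and the median was 0.75 on days 2 and 3 against -0.57 on day 0. With single plates left out, 10 to 14 rose. The change from day 0 passed upward in 11, and 9 passed both tests, beside 4.19% and 2.85% of all tested genes. Gclc encodes the catalytic subunit of the enzyme that limits glutathione synthesis. It had 665 and 638 CPM on day 2 and 813 and 931 CPM on day 3 with RANKL+CSRM617, against 309.6, 309 and 261 CPM and 259.6, 264 and 236 CPM with RANKL. The arms stood apart on both days and overlapped on day 0, at 144 and 132 CPM and 183, 78.7 and 240.1 CPM. The 78.7 CPM came from RANKL day 0 plate 2, with 26 wells. The RANKL+CSRM617 plates lay under the other RANKL plates of day 0. The log2 difference was 1.47 ± 0.15 (adjusted p = 4.32e-10), -0.43 on day 0, and the change from day 0 was 1.90 ± 0.29 (adjusted p = 4.60e-05).

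Srxn1 encodes sulfiredoxin, which restores oxidized peroxiredoxins. It had 197 and 217 CPM and 312 and 268 CPM with RANKL+CSRM617 on days 2 and 3, against 64.7, 92.9 and 59.4 CPM and 101, 77.5 and 92.5 CPM with RANKL. The order of the arms was the reverse on day 0, when the plates had 40.9 and 38.5 CPM and 66.7, 91.8 and 86.6 CPM. The log2 difference was 1.60 ± 0.15 (adjusted p = 8.31e-11) on days 2 and 3, -0.97 on day 0, and the change was 2.57 ± 0.33 (adjusted p = 2.23e-06). Nqo1, a quinone reductase, averaged 109 ± 28.4 CPM with RANKL+CSRM617 and 37.3 ± 7.48 CPM with RANKL (SD, n = 4 and 6), a difference of 1.55 ± 0.18 (adjusted p = 2.41e-08), -0.22 on day 0. Its change from day 0, 1.77 ± 0.32 (adjusted p = 0.000423), did not pass with wells thinned to 1000 UMIs (adjusted p = 0.0894, range over alternatives 0.000143 to 0.0894).

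Gstm1, a glutathione transferase, averaged 551 ± 216 CPM with RANKL+CSRM617 and 216 ± 59.6 CPM with RANKL on days 2 and 3, with overlap between the arms on day 3, and 889 CPM and 1599.6 CPM on day 0. Its difference was 1.35 ± 0.23 (adjusted p = 2.42e-05), -0.85 on day 0, with a change of 2.20 ± 0.40 (adjusted p = 0.000532). Aldh1a7, an aldehyde dehydrogenase, averaged 144 ± 76.3 CPM and 44.3 ± 28.2 CPM, a difference of 1.78 ± 0.21 (adjusted p = 2.91e-08), 0.14 on day 0, with a change of 1.64 ± 0.33 (adjusted p = 0.00162). Reads of both genes can be split with near-identical family members, so their values are uncertain. Ugdh, which makes the UDP-glucuronate used in glucuronidation, had 927 and 1023 CPM and 899.6 and 1223 CPM with RANKL+CSRM617 on days 2 and 3, against 304, 289 and 231 CPM and 306, 355 and 385 CPM with RANKL. Its plates stood apart on both days and overlapped on day 0, at 937 and 579.8 CPM and 1053, 780.3 and 896 CPM. The difference was 1.72 ± 0.16 (adjusted p = 7.95e-11), -0.27 on day 0, and the change 1.99 ± 0.29 (adjusted p = 2.10e-05). Cyp1a1, the aryl hydrocarbon receptor's best-known target, had 40.4 and 42.9 CPM and 139 and 312 CPM with RANKL+CSRM617, against 11.2, 20.6 and 27.7 CPM and 15.3, 8.44 and 13.6 CPM with RANKL. The difference was 2.60 ± 0.39 (adjusted p = 2.69e-06), while on day 0 the arms held 1 and 4 UMIs in all, too few to set a change against. Me1, which supplies NADPH, was higher by 2.25 ± 0.26 (adjusted p = 1.48e-08), 0.84 on day 0, and its change from day 0 did not pass (adjusted p = 0.0746).

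M cell genes were higher with RANKL+CSRM617. Of 20 listed genes 15 were in both tables, and of the 14 tested 11 rose, none fell and all 14 had a positive difference, beside 12.2% and 12.3% of all tested genes, with a median of 1.08 on days 2 and 3 and -0.12 on day 0. Both tests were passed by 4, beside 2.85% of all tested genes that passed both upward. Without RANKL+CSRM617 day 3 plate 2, 7 rose. Gp2, the mature M cell receptor for bacteria, and Tnfaip2 were not analysed here. Spib, the master regulator, had 308 and 480.2 CPM on day 2 and 316 and 566 CPM on day 3 with RANKL+CSRM617, against 172, 214 and 142 CPM and 156, 195 and 127 CPM with RANKL. All 4 RANKL+CSRM617 plates were above all 6 RANKL plates, and no day 0 plate of either arm had a UMI of Spib. The log2 difference was 1.33 ± 0.20 (adjusted p = 5.24e-06). Sox8, which acts with Spib in M cell maturation, had 5.05 to 16.8 CPM with RANKL+CSRM617 and 0 to 2.04 CPM with RANKL, and no UMI on day 0. Its difference of 2.72 ± 0.68 (adjusted p = 0.00366) did not pass without RANKL+CSRM617 day 2 plate 2 (2.59, adjusted p = 0.0646) or day 3 plate 2 (2.34, adjusted p = 0.0968), with a range of 0.00217 to 0.0968 over alternatives.

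**Figure D3:**
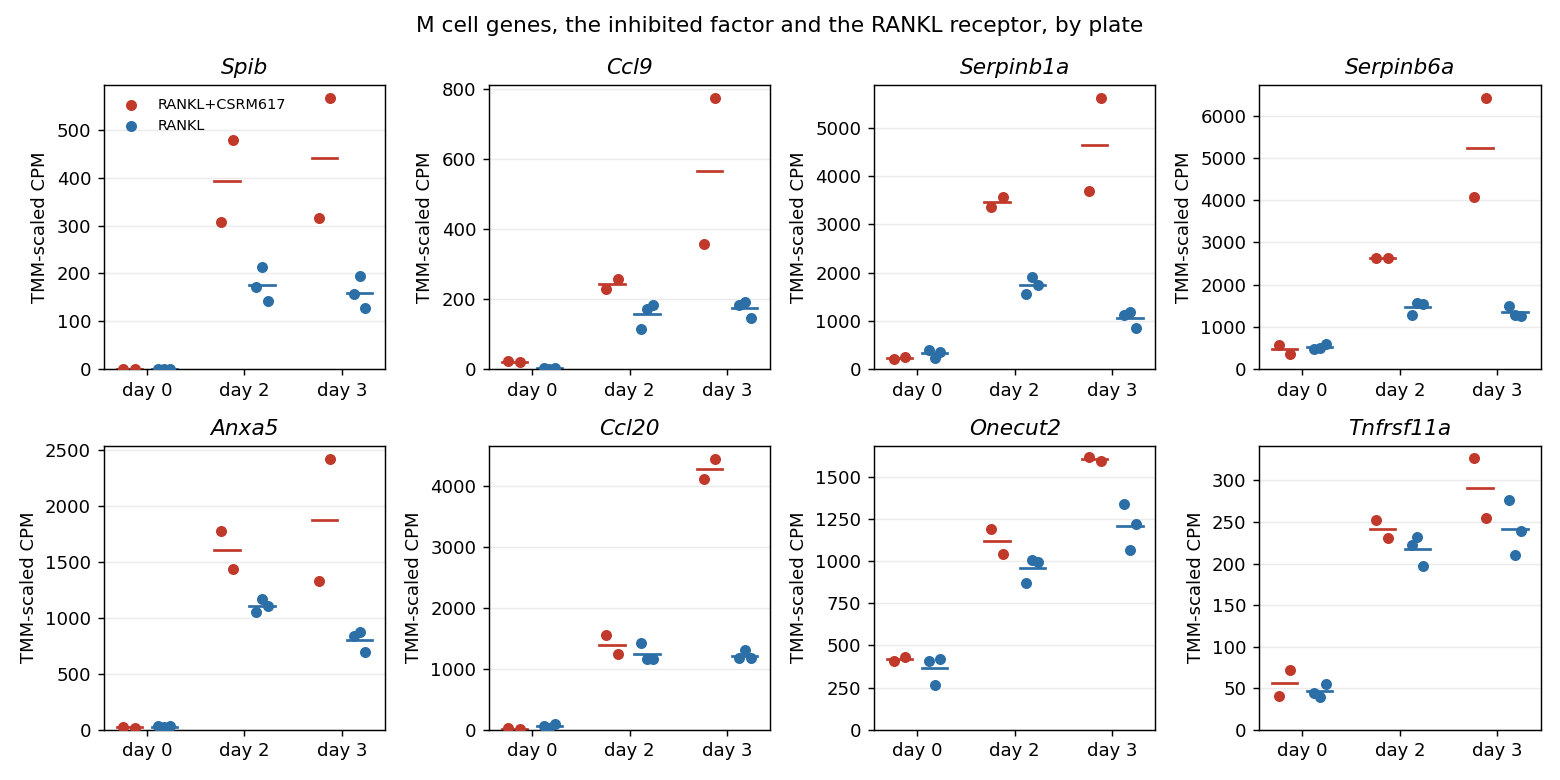
TMM-scaled CPM (y axis) of 6 M cell genes, Onecut2 and Tnfrsf11a on day 0, day 2 and day 3 (x axis), with 1 point per plate, a line at the mean, RANKL+CSRM617 in red and RANKL in blue. Spib, Ccl9, Serpinb1a, Serpinb6a and Anxa5 did not overlap between arms on days 2 and 3, and Ccl20 was apart on day 3 but not on day 2.

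Serpinb1a and Serpinb6a, intracellular protease inhibitors of the M cell programme, were both past the 2 tests. Neither was confined to wells with a Spib UMI, after thinning to 1000 UMIs and with no test. Without Spib, Serpinb1a averaged 1.81 to 2.41 UMIs over RANKL+CSRM617 plates of days 2 and 3 and 0.671 to 1.45 over RANKL plates. Serpinb6a averaged 1.45 to 4.25 and 1.07 to 1.39 in these wells. With Spib, Serpinb1a averaged 6.53 to 9.94 and 2.08 to 6.27, and Serpinb6a 5.93 to 9.79 and 2.03 to 3.63. Serpinb1a had 3371 and 3564 CPM and 3692 and 5628 CPM with RANKL+CSRM617 on days 2 and 3, against 1552, 1917 and 1741 CPM and 1118, 1190.1 and 849 CPM with RANKL. Serpinb6a had 2626 and 2634 CPM and 4073 and 6435 CPM with RANKL+CSRM617, against 1283, 1563 and 1539 CPM and 1491, 1272 and 1257 CPM with RANKL. For both genes the arms were apart on each day. The log2 differences were 1.57 ± 0.16 (adjusted p = 4.75e-10) and 1.41 ± 0.14 (adjusted p = 8.48e-10), beside -0.56 and -0.15 on day 0, and the changes from day 0 were 2.14 ± 0.31 (adjusted p = 1.97e-05) and 1.56 ± 0.27 (adjusted p = 0.000273).

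The chemokine Ccl9, an early M cell marker, averaged 405 ± 252 CPM with RANKL+CSRM617 and 165 ± 29.2 CPM with RANKL (SD, n = 4 and 6), a difference of 1.18 ± 0.19 (adjusted p = 1.19e-05). On day 0 it was also higher on the RANKL+CSRM617 plates, at 21.3 and 19.2 CPM against 2.67, 0 and 1.81 CPM, a difference of 3.20 that did not pass without RANKL+CSRM617 day 0 plate 1 (3.08, adjusted p = 0.140) or RANKL day 0 plate 3 (3.04, adjusted p = 0.0570), and its change from day 0 did not pass (adjusted p = 0.190). Ccl20, which attracts lymphocytes and dendritic cells to follicles and is a target of NF-kappaB, had 1549 and 1245 CPM on day 2 and 4129 and 4449 CPM on day 3 with RANKL+CSRM617, against 1425, 1157 and 1166 CPM and 1174, 1311 and 1174 CPM with RANKL. The arms overlapped on day 2 and were far apart on day 3, with log2 differences of 0.16 (adjusted p = 0.791) and 1.81 (adjusted p = 8.28e-06), but the step between the days did not itself pass (1.65, adjusted p = 0.0915). Over both days the difference was 0.99 ± 0.20 (adjusted p = 0.000209), -1.99 on day 0, and the change from day 0 was 2.97 ± 0.56 (adjusted p = 0.000691). Anxa5, annexin A5, averaged 1741 ± 489 CPM and 954 ± 183 CPM, a difference of 0.88 ± 0.13 (adjusted p = 2.31e-06), -0.45 on day 0. Its change from day 0 of 1.33 ± 0.39 (adjusted p = 0.0300, 0.00638 to 0.145 over alternatives) was 1.49 and 1.23 without RANKL+CSRM617 day 0 plates 1 and 2, 1.34 and 1.24 without RANKL day 0 plates 1 and 3, and 1.25 and 1.09 without RANKL+CSRM617 day 2 plate 1 and day 3 plate 2, and passed in none of these 6 repeats.

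Onecut2, the target of the inhibitor, had 1193 and 1042 CPM and 1619 and 1595 CPM with RANKL+CSRM617 on days 2 and 3, against 870.2, 1008 and 996 CPM and 1341, 1069 and 1219.8 CPM with RANKL. The RANKL+CSRM617 plates were slightly the higher ones on each day. The difference of 0.31 ± 0.12 (adjusted p = 0.0471) was small, 0.16 on day 0, and fell to either side of the threshold: it missed it in 19 of 25 alternatives, among them 11 of 15 plates left out in turn (adjusted p 0.0303 to 0.261 over alternatives). Its change from day 0 was 0.16 ± 0.22 (adjusted p = 0.745). CSRM617 acts on the protein, so this transcript does not check the treatment. Tnfrsf11a averaged 266 ± 42.2 CPM and 229.6 ± 27.6 CPM, and its difference of 0.20 ± 0.12 did not pass (adjusted p = 0.239), nor did that on day 0 (0.15).

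Of 20 tested NF-kappaB response genes 2 rose and 1 fell, beside 12.2% and 12.3% of all tested genes, with a median of -0.01. Birc3, an inhibitor of apoptosis, had 157 and 129.8 CPM and 207 and 208 CPM with RANKL+CSRM617 against 44.0, 46.1 and 44.5 CPM and 69.9, 50.6 and 61.9 CPM with RANKL. Its plates were apart on both days, the difference was 1.71 ± 0.17 (adjusted p = 4.70e-10), 0.40 on day 0, and the change from day 0 did not pass (1.30 ± 0.47, adjusted p = 0.0906). Nfkb2 and Relb, which form the complex of the alternative NF-kappaB pathway downstream of RANK, had differences of -0.15 ± 0.19 (adjusted p = 0.623) and -0.39 ± 0.21 (adjusted p = 0.175), beside 0.44 and -0.13 on day 0. Sod2, mitochondrial superoxide dismutase, averaged 14.3 ± 5.58 CPM with RANKL+CSRM617 and 127 ± 14.4 CPM with RANKL, a difference of -3.16 ± 0.23 (adjusted p = 1.99e-13), and was far apart on day 0 too (-4.04, adjusted p = 4.45e-11).

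Several genes of the mature enterocyte surface rose with RANKL+CSRM617 on days 2 and 3 and were lower on its plates on day 0. Of 19 tested brush border and absorption genes 9 rose and 1, the disaccharidase gene Mgam, fell, beside 12.2% and 12.3% of all tested genes, with a median of 0.56 against -0.80 on day 0, when 8 were lower, beside 7.07% of all. Both tests were passed by 6, beside 2.85% of all tested genes that passed both upward, and by fewer without RANKL+CSRM617 day 2 plate 2. Without RANKL+CSRM617 day 2 plate 2, 4 rose, and Mgam did not pass without any 1 of RANKL day 2 plate 1, RANKL day 3 plate 2, RANKL+CSRM617 day 2 plate 1 or either RANKL+CSRM617 day 3 plate. Anpep, aminopeptidase N, had 65.7 and 28.99 CPM on day 2 and 154 and 154 CPM on day 3 with RANKL+CSRM617, against 13.8, 22.4 and 12.8 CPM and 18.6, 6.91 and 21.1 CPM with RANKL. All RANKL+CSRM617 plates were higher, most so on day 3. The difference was 2.33 ± 0.33 (adjusted p = 9.87e-07), -0.45 on day 0, and the change 2.78 ± 0.56 (adjusted p = 0.00148).

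Krt20, a keratin of villus tip cells, had 243 and 339 CPM and 527 and 549 CPM with RANKL+CSRM617 against 226, 188 and 221 CPM and 206, 249 and 203 CPM with RANKL. On day 0 the arms were the other way round, at 45.8 and 41.2 CPM and 209, 249 and 258 CPM. The difference was 0.89 ± 0.15 on days 2 and 3 (adjusted p = 1.84e-05), -2.43 on day 0 (adjusted p = 7.97e-08), and the change 3.31 ± 0.33 (adjusted p = 1.18e-08). Vil1, villin, and Creb3l3, a factor of lipid metabolism in enterocytes, were higher by 0.62 ± 0.12 (adjusted p = 0.000196) and 0.92 ± 0.19 (adjusted p = 0.000307), beside -0.80 and -1.07 on day 0, with changes of 1.42 ± 0.22 (adjusted p = 6.96e-05) and 1.99 ± 0.35 (adjusted p = 0.000312). Alpi, intestinal alkaline phosphatase, averaged 470.4 ± 256 CPM and 446 ± 119 CPM, with a difference of -0.07 ± 0.24 (adjusted p = 0.860) beside -1.64 on day 0. Its RANKL+CSRM617 plates were the lower ones on day 2 and the higher ones on day 3. The change of Alpi from day 0 was upward and passed (adjusted p = 0.0181). It did not pass without RANKL day 0 plate 3 (1.32, adjusted p = 0.0860) or with DESeq2 (1.545, adjusted p = 0.0667). Nor did it pass without RANKL+CSRM617 day 0 plate 2 (1.28). In the list of lipid absorption 5 of 17 tested genes rose and none fell, beside 12.2% and 12.3% of all tested genes (median 0.36, -1.32 on day 0, when 8 were lower, beside 7.07% of all). That count was 3 without any 1 of RANKL day 2 plate 1, RANKL day 3 plate 1 or RANKL day 3 plate 3, and 1 and 2 without RANKL+CSRM617 day 2 plate 2 and day 3 plate 2.

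**Figure D4:**
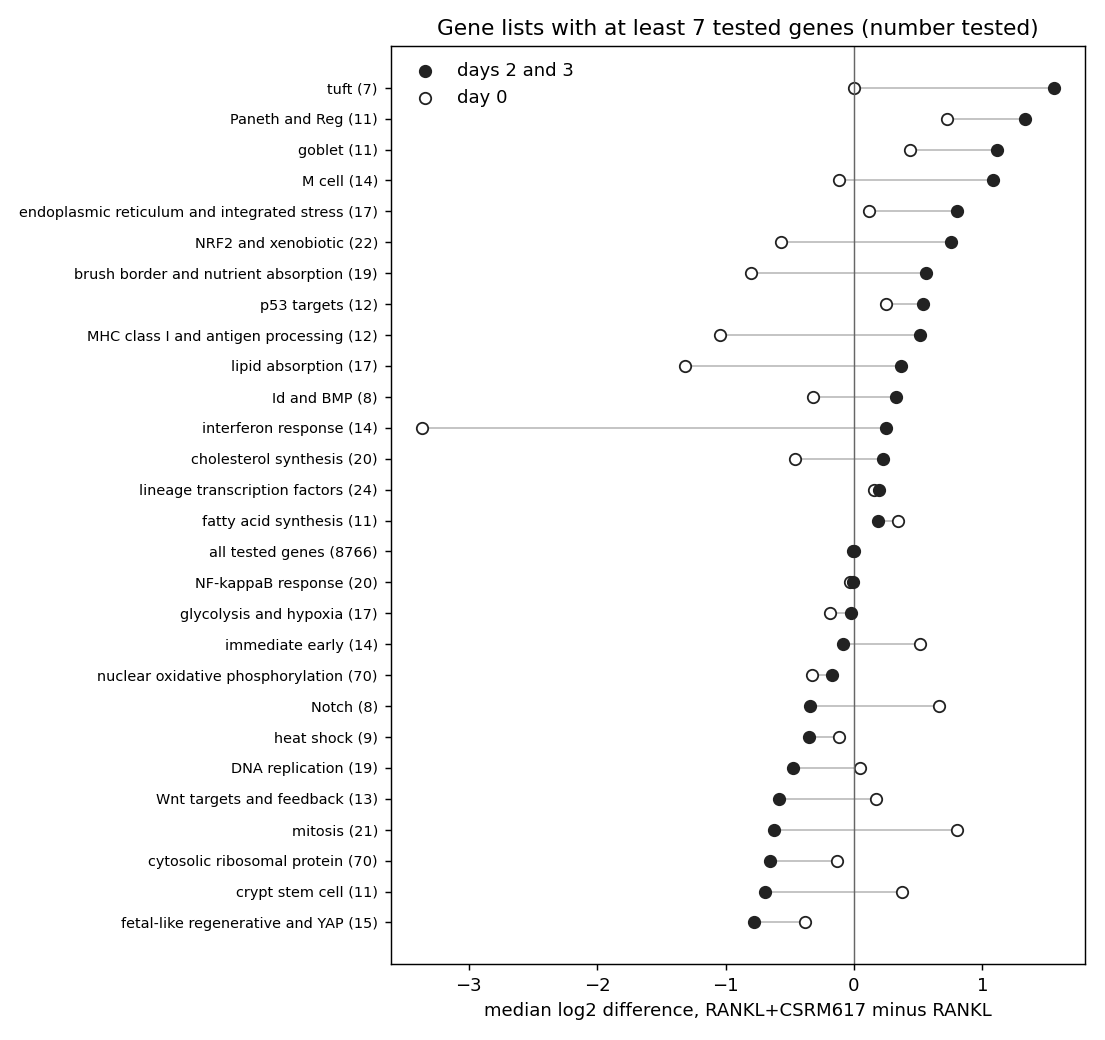
Median log2 difference between the arms (x axis, RANKL+CSRM617 minus RANKL) over the tested genes of each list (y axis, number tested in brackets), on days 2 and 3 (filled) and on day 0 (open). Tuft, Paneth and Reg, goblet and M cell lists lie highest on days 2 and 3, at 1.56, 1.34, 1.12 and 1.08, and the interferon list lies at -3.36 on day 0.

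Among secretory cell markers, some goblet, tuft and Paneth and Reg genes rose, but no gene of these lists passed the change from day 0. Of 11 tested goblet genes 7 rose and none fell, beside 12.2% and 12.3% of all tested genes, and the median was 1.12 (0.44 on day 0), with 4 and 3 rising without RANKL+CSRM617 day 2 plate 2 and day 3 plate 2. Muc2, the main mucin of goblet cells, had 154 and 79.4 CPM and 124 and 164 CPM with RANKL+CSRM617 on days 2 and 3, against 29.3, 2.49 and 18.2 CPM and 43.3, 9.21 and 0.680 CPM with RANKL. The lowest RANKL+CSRM617 plate was above the highest RANKL plate, and the day 0 plates held 8 and 1 UMIs of Muc2. The difference was 2.90 ± 0.71 (adjusted p = 0.00221), 3.85 without RANKL day 3 plate 1, and did not pass with DESeq2 (adjusted p = 0.0580, range over alternatives 4.05e-05 to 0.0580). Clca1, secreted by goblet cells, had 20.2 to 147 CPM and 0.767 to 15.5 CPM, a difference of 3.84 ± 0.82 (adjusted p = 0.000497), 2.88 without RANKL+CSRM617 day 2 plate 1 and 4.71 without RANKL day 3 plate 1, with 0 and 3 UMIs on day 0. Rgs13, of tuft cells, had 32.9 and 35.3 CPM and 30.1 and 201 CPM, against 3.45, 2.49 and 0.675 CPM and 1.33, 13.8 and 10.2 CPM, with no UMI on day 0. Its difference of 3.86 ± 0.64 (adjusted p = 1.75e-05) was 2.85 without RANKL+CSRM617 day 3 plate 2, and was -0.56 (adjusted p = 0.872) with only wells of at least 2000 UMIs.

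Of 7 tested tuft genes 2 rose and none fell, and of 11 Paneth and Reg genes 4 rose and none fell, beside 12.2% and 12.3% of all tested genes. Of 6 enteroendocrine genes none passed, or 1 upward without RANKL day 2 plate 2. The enteroendocrine differences were negative in 4 of 6, with a median of -0.58. The tuft count was 1 without RANKL day 2 plate 3, RANKL+CSRM617 day 2 plate 1 or day 3 plate 2 and 4 without RANKL day 3 plate 2, and the Paneth and Reg count was 7 without RANKL day 3 plate 1. Reg3g, a secreted antibacterial lectin, had 5428 and 3866 CPM and 12692 and 12881 CPM with RANKL+CSRM617, against 1966, 2268 and 2823 CPM and 4560.3, 3823 and 4690.0 CPM with RANKL. Every RANKL+CSRM617 plate was higher on the same day, and on day 0 the arms overlapped, at 1363 and 764 CPM and 372, 518 and 766 CPM. The difference was 1.27 ± 0.24 (adjusted p = 0.000128), 0.94 on day 0, and the change from day 0 did not pass (0.32 ± 0.44, adjusted p = 0.748). The related Reg3b was higher by 1.98 ± 0.51 (adjusted p = 0.00354), and its day 0 difference of 2.56 did not pass (adjusted p = 0.0843). Reg3 genes are near copies of each other, which makes their values uncertain. The summed level of the 12 goblet genes in both tables was 1516 to 4299 CPM with RANKL+CSRM617 and 719 to 1050.1 CPM with RANKL, and that of 9 tuft genes 76.0 to 343 CPM and 17.8 to 92.8 CPM.

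Crypt stem cell genes were lower with RANKL+CSRM617. Of 11 tested genes 5 fell, none rose and all 11 differences were negative, beside 12.3% and 12.2% of all tested genes, with a median of -0.70 on days 2 and 3 and 0.37 on day 0. Both tests were passed by 3, beside 1.53% of all tested genes that passed both downward. The genes that fell were Igfbp4, Lgr5, Rgmb, Slc12a2 and Smoc2. Lgr5, a receptor for R-spondins and the classic marker of stem cells at the crypt base, had 10.1 and 15.1 CPM and 7.53 and 6.70 CPM with RANKL+CSRM617 on days 2 and 3, against 41.4, 29.3 and 40.5 CPM and 37.3, 26.1 and 31.3 CPM with RANKL. Its plates were apart on both days and all lay far under day 0, when they had 245 and 234 CPM and 188, 190.2 and 181 CPM. The difference was -1.79 ± 0.28 (adjusted p = 7.17e-06), 0.37 on day 0, and the change -2.17 ± 0.34 (adjusted p = 8.16e-05). The reporter allele of this gene was present in every group.

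Slc12a2, a sodium, potassium and chloride cotransporter of crypt cells, had 1246 and 1035 CPM and 1107 and 1059 CPM with RANKL+CSRM617, against 2668, 2066 and 2422 CPM and 2024, 2215 and 1918 CPM with RANKL. No plate overlapped on days 2 and 3, and on day 0 the arms did, at 1198 and 1649 CPM and 1463, 1488 and 1155 CPM. The difference was -0.99 ± 0.12 (adjusted p = 4.41e-08), 0.06 on day 0, and the change -1.05 ± 0.20 (adjusted p = 0.000876). Smoc2, a secreted stem cell marker, fell by 1.03 (-1.03 ± 0.18, adjusted p = 2.04e-05), 0.08 on day 0, with a change of -1.11 ± 0.26 (adjusted p = 0.00562). Igfbp4 fell by 0.76 (adjusted p = 0.000664), -0.08 on day 0. Olfm4, an abundant stem cell marker, averaged 717 ± 244 CPM and 941 ± 197 CPM, a difference of -0.43 ± 0.20 that did not pass (adjusted p = 0.112) except without RANKL+CSRM617 day 3 plate 1 (-0.75, adjusted p = 0.0133), beside 0.62 on day 0. The change of Olfm4 from day 0 was downward and narrowly passed (adjusted p = 0.0491). It did not pass without RANKL day 0 plate 1 (-0.86, adjusted p = 0.158) or with DESeq2 size factors (-1.06, adjusted p = 0.0525). A minimum of 2000 UMIs per well (-0.84, adjusted p = 0.228) and a replicate block (-1.04, adjusted p = 0.0618) also lost it. So did leaving out RANKL day 0 plate 3, RANKL day 2 plate 1 or 2, or any RANKL day 3 plate. The same held without either RANKL+CSRM617 day 0 plate, or without RANKL+CSRM617 day 2 plate 2 or day 3 plate 2. In the list of Wnt targets 5 of 13 fell and none rose, beside 12.3% and 12.2% of all tested genes (median -0.58, 0.17 on day 0), and 1 rose without RANKL day 2 plate 3. Among them Myc, a driver of growth, had 152 and 134 CPM and 147 and 77.1 CPM against 227, 228 and 201 CPM and 279.6, 243 and 239 CPM, a difference of -0.91 ± 0.18 (adjusted p = 0.000156), -0.07 on day 0, and a change from day 0 of -0.84 ± 0.29 that did not pass (adjusted p = 0.0714).

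Cell division genes were also lower. All 21 tested mitosis genes had a negative difference, with a median of -0.62 on days 2 and 3 against 0.80 on day 0. On day 0, 8 of these were higher, beside 2.75% of all tested genes. The count that fell, 8, rests on single plates: it was 1 without RANKL+CSRM617 day 2 plate 2, 1 without RANKL+CSRM617 day 3 plate 2 and 13 without RANKL+CSRM617 day 3 plate 1, beside 12.3% of all tested genes. Both tests were passed by 6, beside 1.53% of all tested genes that passed both downward, or by 10 without RANKL day 3 plate 2. Fewer passed without RANKL+CSRM617 day 2 plate 2 or day 3 plate 2, and more without RANKL+CSRM617 day 3 plate 1. Cenpa, a centromere histone, averaged 89.4 ± 26.4 CPM with RANKL+CSRM617 and 164 ± 47.6 CPM with RANKL, a difference of -0.91 ± 0.23 (adjusted p = 0.00316), 0.66 on day 0, that was -0.72 without RANKL+CSRM617 day 2 plate 2 (adjusted p = 0.0506, range over alternatives 0.000307 to 0.0506). Its change of -1.58 ± 0.39 (adjusted p = 0.00952) was -1.48 without RANKL+CSRM617 day 0 plate 2 (adjusted p = 0.0639, range 0.00178 to 0.0639). Mki67, the proliferation marker, had a difference of -0.62 ± 0.24 that did not pass (adjusted p = 0.0522, 0.0146 to 0.314 over alternatives), 0.80 on day 0. The change of Mki67 from day 0 was downward and passed (adjusted p = 0.0237). It did not pass without RANKL day 0 plate 1 (-1.44, adjusted p = 0.0506). Nor did it pass without RANKL+CSRM617 day 0 plate 2 (-1.02), day 2 plate 2 (-1.33) or day 3 plate 2 (-1.20). Of 19 DNA replication genes 7 fell and none rose, beside 12.3% and 12.2% of all tested genes (median -0.48, 0.04 on day 0). Cdkn1a, the cell cycle inhibitor p21, had 617 and 654 CPM and 1182 and 1591 CPM with RANKL+CSRM617, against 408, 406 and 376 CPM and 411, 288 and 388 CPM with RANKL. Its plates were apart on both days, and the RANKL+CSRM617 plates were highest on day 3. The difference was 1.31 ± 0.18 (adjusted p = 3.44e-07), -0.52 on day 0, and the change 1.83 ± 0.33 (adjusted p = 0.000407). Of 12 tested p53 targets 5 rose and none fell, beside 12.2% and 12.3% of all tested genes (median 0.54, 0.25 on day 0). Fewer rose without RANKL+CSRM617 day 3 plate 2.

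Among other genes that were lower, Pigr, the receptor that carries polymeric immunoglobulin across the epithelium, had 199.6 and 233 CPM and 211 and 171 CPM with RANKL+CSRM617, against 467, 446 and 581 CPM and 652, 697 and 731 CPM with RANKL. All plates were under the day 0 level of 1672 and 1984 CPM and 1348, 1967 and 1661 CPM, and the RANKL+CSRM617 plates were the lower ones on both days. The difference was -1.53 ± 0.17 (adjusted p = 3.69e-09), 0.15 on day 0, and the change -1.68 ± 0.26 (adjusted p = 6.19e-05). Aqp4, a water channel, had 58.1 and 52.9 CPM and 48.9 and 26.8 CPM against 185, 157 and 184 CPM and 176, 131 and 121 CPM, and 224 and 212 CPM and 156, 170.5 and 146 CPM on day 0. Its RANKL plates stayed near their day 0 level and the RANKL+CSRM617 plates lay well under theirs. The difference was -1.80 ± 0.21 (adjusted p = 1.10e-08), 0.50 on day 0, and the change -2.30 ± 0.31 (adjusted p = 5.87e-06). Pdcd4, an inhibitor of translation, averaged 84.5 ± 30.2 CPM and 319 ± 129.6 CPM, a difference of -1.82 ± 0.18 (adjusted p = 3.51e-10), -0.72 on day 0, and its change of -1.10 ± 0.28 (adjusted p = 0.0102) was -1.02 without RANKL+CSRM617 day 0 plate 1 (adjusted p = 0.0732, range over alternatives 0.00186 to 0.0732).

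Other genes past both tests came from several roles. Tsku, a secreted modulator of Wnt and BMP signalling, had 63.2 and 98.3 CPM and 117 and 147 CPM with RANKL+CSRM617, against 27.6, 23.7 and 14.8 CPM and 42.6, 48.3 and 39.5 CPM with RANKL. The difference was 1.77 ± 0.23 (adjusted p = 1.85e-07), -0.92 on day 0, and the change 2.69 ± 0.52 (adjusted p = 0.000876). Bmp2, a BMP ligand, averaged 278 ± 96.5 CPM and 147 ± 12.1 CPM on days 2 and 3 and 5.76 CPM and 25.6 CPM on day 0. Its difference was 0.89 ± 0.17 (adjusted p = 8.76e-05), -2.51 on day 0. The change of 3.40 ± 0.62 (adjusted p = 0.000550) was 2.74 and 4.02 without RANKL+CSRM617 day 0 plates 1 and 2 and did not pass with thinned wells (adjusted p = 0.0582, range 0.000249 to 0.0582). Msmo1, of cholesterol synthesis, was higher by 0.54 ± 0.11 (adjusted p = 0.000181), -0.53 on day 0, with a change of 1.07 ± 0.19 (adjusted p = 0.000407). Of 20 genes of that pathway 7 rose and 1 fell, beside 12.2% and 12.3% of all tested genes (median 0.22, -0.46 on day 0). The 7 became 4 without RANKL+CSRM617 day 0 plate 2, 3 without RANKL+CSRM617 day 2 plate 1 and 3 without day 3 plate 2, and the 1 became 3 without RANKL+CSRM617 day 2 plate 2, 2 without day 3 plate 2 and 0 without day 2 plate 1 or day 3 plate 1. Scd1, a fatty acid desaturase, was higher by 1.24 ± 0.14 (adjusted p = 1.34e-08), 0.21 on day 0. Its change of 1.02 ± 0.26 (adjusted p = 0.0103, 0.00304 to 0.151 over alternatives) was 0.92 without RANKL day 0 plate 3 and 0.99 and 1.03 without RANKL+CSRM617 day 0 plates 1 and 2, and passed in none of these 3 repeats. Unlike these genes, Vegfa, the angiogenic factor, did not pass both tests. It was higher by 1.12 ± 0.12 (adjusted p = 4.92e-09) on days 2 and 3 and already by 1.23 on day 0 (adjusted p = 4.87e-05).

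Interferon response genes differed mainly on day 0. Counts here stand beside shares of all tested genes: 7.07% were lower on day 0 and 4.19% changed upward from it. On days 2 and 3 these shares were 12.2% for rises and 12.3% for falls. Of 14 interferon genes tested, 11 were lower on the RANKL+CSRM617 plates on day 0, with a median of -3.36, and on days 2 and 3 only Oasl2 passed, upward, with a median of 0.25. On those days 2 passed without RANKL day 3 plate 2 and 0 without RANKL+CSRM617 day 3 plate 2. The change from day 0 passed upward in 11, or 6 without RANKL+CSRM617 day 0 plate 2, 6 without day 2 plate 2 and 7 without day 3 plate 2. Oasl2, an antiviral gene, had 16.3 and 5.50 CPM on day 0 with RANKL+CSRM617 and 235, 184 and 223 CPM with RANKL, and averaged 49.6 ± 29.6 CPM and 22.4 ± 9.60 CPM on days 2 and 3. Its difference was 1.18 ± 0.28 (adjusted p = 0.00188), or 0.68 without RANKL+CSRM617 day 3 plate 2 (adjusted p = 0.242, range 0.000351 to 0.242), against -4.16 on day 0 and -5.30 without RANKL+CSRM617 day 0 plate 1, and the change of 5.34 ± 0.52 (adjusted p = 1.18e-08) was 6.45 without that day 0 plate. Of 12 MHC class I and antigen processing genes 4 rose and 1 fell (median 0.52, -1.04 on day 0), with 2 and 1 rising and 1 and 2 falling without RANKL+CSRM617 day 2 plate 2 and day 3 plate 2.

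Some genes were already far apart on day 0. Ssr1, a subunit of the translocon-associated complex, had 12.6 and 1.26 CPM and 0 and 0 CPM with RANKL+CSRM617 on days 2 and 3, against 338, 289 and 253 CPM and 280.3, 267 and 269 CPM with RANKL. On day 0 it already had 6.54 and 13.7 CPM against 432, 609.8 and 417 CPM. The fitted difference was -8.28 ± 0.41 (adjusted p = 1.08e-17), -9.26 and -7.65 without RANKL+CSRM617 day 2 plates 1 and 2, beside -5.64 on day 0 (adjusted p = 4.69e-14), and against 3 counts over the group it was at least 51.2-fold lower on day 3, where no UMI was seen. Sdcbp, the adaptor syntenin, had 3.35 to 11.3 CPM and 356 to 437 CPM, differences of -5.81 ± 0.29 and -6.63 on day 0. Ppp2r1b, a scaffold subunit of phosphatase 2A, had no UMI in the 4 RANKL+CSRM617 plates and 548 in the 6 RANKL plates, at least 37.6-fold lower against 3 counts over the group, and on day 0 it had 2 and 155 UMIs, a ratio of 0.0315 (95% counting interval 0.00379 to 0.116). The changes from day 0 of these 3 genes did not pass (adjusted p 0.243, 0.643 and 0.377).

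Many ribosomal protein genes fell with RANKL+CSRM617. Of 70 for the cytosolic ribosome 42 fell and none rose, beside 12.3% and 12.2% of all tested genes. The median was -0.66 on days 2 and 3 and -0.13 on day 0, when 15 were lower, beside 7.07% of all. Both tests were passed by 3, beside 1.53% of all tested genes that passed both downward, or by 5 without RANKL day 0 plate 2. Fewer passed without either RANKL+CSRM617 day 0 plate, and more without RANKL+CSRM617 day 2 plate 2. Ribosomal protein genes have many processed copies in the genome, so how reads were assigned bears on these values. Of 9 heat shock genes 5 fell and 1 rose, beside 12.3% and 12.2% of all tested genes. Hspa8 and Hsph1, cytosolic chaperones, had differences of -4.04 ± 0.55 (adjusted p = 4.37e-07) and -2.86 ± 0.30 (adjusted p = 2.16e-09), with Hsph1 at -3.57 without RANKL+CSRM617 day 3 plate 1, and of -5.22 and -2.49 on day 0. Hnrnpa1, an RNA-binding protein of splicing, had 70.8 and 64.3 CPM and 45.2 and 43.6 CPM against 426, 508 and 450.0 CPM and 439, 423 and 394 CPM. Its difference of -3.01 ± 0.17 (adjusted p = 6.68e-17) exceeded that on day 0, -1.61 (adjusted p = 2.57e-07), and the change of -1.40 ± 0.27 passed (adjusted p = 0.000876).

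Some signalling genes were lower on day 0 too. Id3, a BMP target, averaged 29.04 ± 16.3 CPM and 256 ± 47.4 CPM, a difference of -3.00 ± 0.27 (adjusted p = 6.51e-11), -4.03 without RANKL+CSRM617 day 2 plate 2, and on day 0 it had no UMI on the RANKL+CSRM617 plates and 60 on the RANKL plates, at least 8.18-fold lower against 3 counts. Hes1, the Notch effector, had differences of -1.49 ± 0.17 (adjusted p = 1.39e-08) and -1.07 on day 0 (adjusted p = 0.000266, or 0.0698 with thinned wells). Wls, which carries Wnt ligands to the surface, had differences of -3.20 ± 0.25 (adjusted p = 5.15e-13) and -1.68 on day 0 (adjusted p = 3.60e-05). The change of -1.52 ± 0.42 in Wls (adjusted p = 0.0223, 0.0174 to 0.435 over alternatives) was -1.23, -1.47 and -1.33 without RANKL+CSRM617 day 0 plate 2, day 2 plate 2 and day 3 plate 2, and did not pass in these 3 repeats.

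In the remaining lists, counts are to be read beside the 12.2% of all tested genes that rose and the 12.3% that fell. For nuclear oxidative phosphorylation 1 of 70 rose and 12 fell (median -0.17), with 5 and 21 falling without RANKL+CSRM617 day 2 plates 1 and 2. For lineage transcription factors 8 of 24 rose and 2 fell, with 5 rising without RANKL+CSRM617 day 2 plate 1 or either RANKL+CSRM617 day 3 plate, and 1 falling without RANKL+CSRM617 day 2 plate 2 or day 3 plate 2. For fatty acid synthesis 4 of 11 rose and 3 fell, with 2 rising without RANKL+CSRM617 day 3 plate 1 and 1 and 0 falling without RANKL+CSRM617 day 2 plate 2 and day 3 plate 2. For glycolysis and hypoxia 3 of 17 rose and 2 fell, with 1 falling without RANKL day 2 plate 1, RANKL day 3 plate 2, RANKL+CSRM617 day 2 plate 1 or day 3 plate 1. For Id and BMP genes 3 of 8 rose and 2 fell, and the change from day 0 passed in 1. For Notch genes none of 8 rose and 2 fell, with 1 falling without either RANKL+CSRM617 day 3 plate. For immediate early genes none of 14 rose and 3 fell, with 1 rising without RANKL day 0 plate 2, RANKL day 2 plate 1, either RANKL+CSRM617 day 0 plate or RANKL+CSRM617 day 3 plate 1. For fetal-like and YAP genes 1 of 15 rose and 3 fell, with none rising without RANKL day 2 plate 1 or 3, RANKL+CSRM617 day 2 plate 1 or RANKL+CSRM617 day 3 plate 2, and 1 falling without the last of these. Of the 6 epithelial markers Vil1 passed, upward. The count was 2 without RANKL day 0 plate 1 or 2, RANKL day 2 plate 1 or 2 or RANKL+CSRM617 day 2 plate 1, and 1 fell without RANKL+CSRM617 day 2 plate 2. The single replication-dependent histone gene tested fell, and Cd74, the 1 immune marker tested, did not pass except without RANKL+CSRM617 day 2 plate 1.

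The difference between the arms itself changed from day 2 to day 3 in 4 genes, 0.0456% of those tested, all upward, whereas 604 had an unadjusted p at or under 0.05 and DESeq2 called 16. These genes fall outside the naming rule and are named because they are few. Car8, a carbonic anhydrase-related protein, had 195 and 139 CPM on day 2 and 489 and 693 CPM on day 3 with RANKL+CSRM617, against 304, 269 and 246 CPM and 280.3, 234 and 192 CPM with RANKL. The RANKL+CSRM617 plates were the lower ones on day 2 and the higher ones on day 3. The log2 difference was -0.74 ± 0.21 on day 2 and 1.33 ± 0.20 on day 3, and the step between them was 2.07 ± 0.29 (SE, adjusted p = 0.000214), past the threshold in all 25 alternatives, beside 0.13 on day 0. Ubd, a ubiquitin-like modifier, had 30.3 and 21.4 CPM and 248 and 214 CPM with RANKL+CSRM617, against 94.0, 69.2 and 101 CPM and 119, 134 and 145 CPM with RANKL, and no UMI on day 0. Its step of 2.63 ± 0.49 (adjusted p = 0.0179, 0.00165 to 0.491 over alternatives) did not pass with thinned wells (1.81, adjusted p = 0.491), nor without RANKL day 2 plate 3 (2.51) or RANKL day 3 plate 1 (2.55), nor without RANKL+CSRM617 day 2 plates 1 (2.81) and 2 (2.29) or day 3 plates 1 (2.49) and 2 (2.71). AW112010, a noncoding RNA gene of immune responses, had a step of 2.70 ± 0.45 (adjusted p = 0.00322, 2.38e-05 to 0.426), with 2.16 in thinned wells (adjusted p = 0.0566), 2.42 without RANKL+CSRM617 day 2 plate 2 (adjusted p = 0.0786) and 1.53 without RANKL+CSRM617 day 3 plate 2 (adjusted p = 0.426), and differences of -0.07 on day 2, 2.62 on day 3 and 0.63 on day 0. Mxd1, a MAX partner that opposes Myc, had a step of 1.79 ± 0.36 (adjusted p = 0.0407, 0.00248 to 0.392), from differences of -0.84 on day 2 and 0.95 on day 3, with -2.39 on day 0. It passed without RANKL+CSRM617 day 3 plate 1 or any RANKL day 0 plate and failed without each of the other 11 plates left out in turn, with steps of 1.46 to 1.94. With replicate number as a block its adjusted p was 0.0737, and with thinned wells 0.0977.

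Shares of wells were compared after every well was thinned to 1000 UMIs, since the arms differed in depth, in 3 exact permutation tests of plates within days (two-sided, 100 arrangements, smallest possible p 0.01, adjusted over the 3 tests). Wells with a UMI of Spib made up 23.9% ± 7.62 of RANKL+CSRM617 wells (SD over 4 plates) and 11.8% ± 3.02 of RANKL wells (SD over 6 plates). The RANKL+CSRM617 plates held 16.9% to 33.0% and the RANKL plates 8.27% to 16.1%, a difference of 12.2 percentage points (exact p = 0.01, adjusted p = 0.015). On day 0 it was 0 of 345 RANKL+CSRM617 wells, which allows a share of up to 0.870%, and 0 of 481 RANKL wells, up to 0.624%, in wells with a UMI and for counting error only. Without thinning, the shares were 30.3% to 49.2% and 28.8% to 39.7%, so that the arms overlapped. A broader share, of thinned wells with UMIs of 4 or more M cell genes, was closer between the arms and was not tested. With RANKL+CSRM617 it was 43.3% and 48.2% on day 2 and 46.7% and 49.5% on day 3. With RANKL it was 40.4%, 46.3% and 38.7% on day 2 and 35.1%, 41.8% and 36.7% on day 3. The arms overlapped on day 2 in this share and were apart on day 3. Wells with UMIs of 2 or more mitosis genes were 17.7% ± 5.81 and 36.1% ± 9.52, a difference of -18.4 points (exact p = 0.01, adjusted p = 0.015), beside 39.5% and 36.9% on day 0. Ribosomal protein UMIs per 1000 of a well were 24.5 ± 7.25 and 43.0 ± 4.60 (exact p = 0.02, adjusted p = 0.02), beside 39.4 and 50.3 on day 0, and on day 2 the arms overlapped slightly, at 35.2 in the highest RANKL+CSRM617 plate and 35.1 in the lowest RANKL plate. RANKL day 0 plate 2, with 26 wells, held 46.2% mitosis wells and 62.8 ribosomal UMIs. Plates 1 and 3 of that group held 34.1% and 30.5% mitosis wells and 45.5 and 42.6 ribosomal UMIs.

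**Figure D5:**
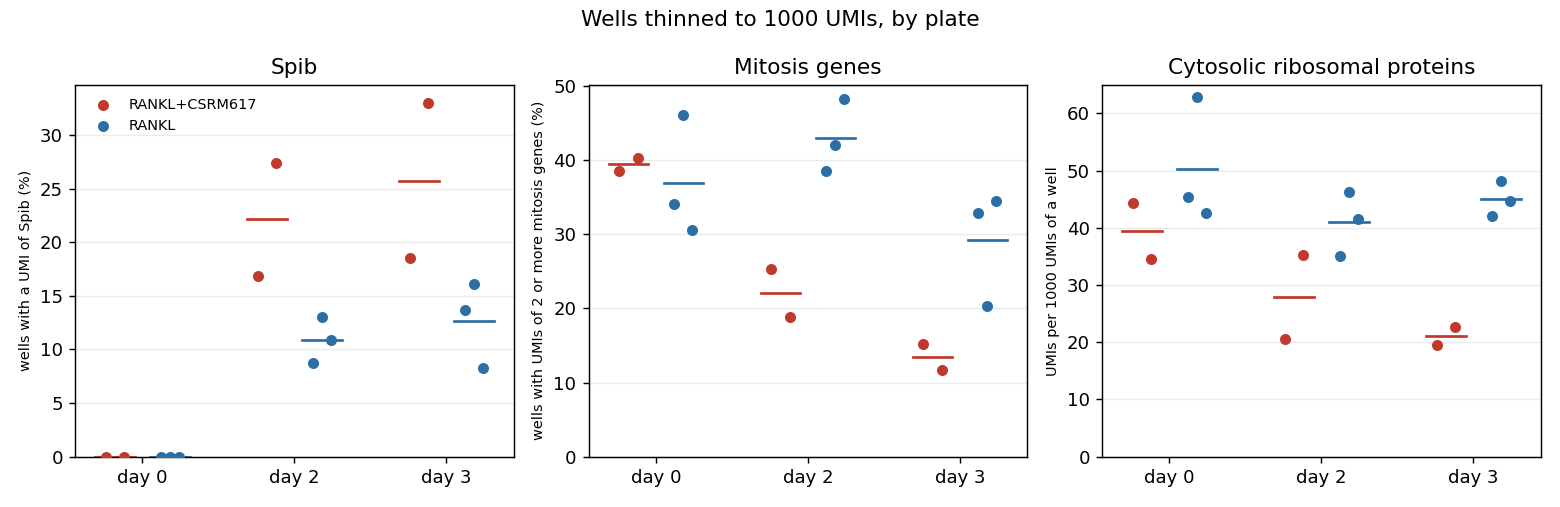
Shares of wells with a UMI of Spib (left, percent), with UMIs of 2 or more mitosis genes (middle, percent), and UMIs of cytosolic ribosomal proteins per 1000 UMIs of a well (right), by day (x axis), each well thinned to 1000 UMIs, with 1 point per plate and a line at the mean. RANKL+CSRM617 plates (red) hold 16.9% to 33.0% Spib wells against 8.27% to 16.1% on RANKL plates (blue) on days 2 and 3.

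The levels of 4 stress genes were set out by whether a well held a Spib UMI, in UMIs per 1000 and with no test. In wells with Spib, Mt2 averaged 1.60 to 4.09 over the RANKL+CSRM617 plates and 0.0385 to 0.973 over the RANKL plates. In wells without it, Mt2 averaged 0.825 to 3.19 over the RANKL+CSRM617 plates and 0.134 to 0.722 over the RANKL plates. Gclc averaged 0.882 to 1.35 over the RANKL+CSRM617 plates and 0.351 to 0.478 over the RANKL plates in wells with Spib. In the others, Gclc averaged 0.440 to 0.768 over the RANKL+CSRM617 plates and 0.167 to 0.352 over the RANKL plates. For Mt2 and Gclc every RANKL+CSRM617 plate was above every RANKL plate of its day in both classes of wells. Asns in wells with Spib averaged 0 to 0.241 over the RANKL+CSRM617 plates and 0 to 0.0476 over the RANKL plates, with 0 in 2 of the 4 RANKL+CSRM617 plates. In wells without Spib, Asns averaged 0.120 to 0.217 over the RANKL+CSRM617 plates and 0.0196 to 0.0548 over the RANKL plates, with no overlap. Nqo1 averaged 0 to 0.185 over the RANKL+CSRM617 plates and 0 to 0.100 over the RANKL plates in wells with Spib. In the others, Nqo1 averaged 0.0533 to 0.168 over the RANKL+CSRM617 plates and 0.0283 to 0.0548 over the RANKL plates, and the arms overlapped in both classes. A well without a Spib UMI at this depth can still hold a cell that expresses it.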

How the data were processed

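Single cells sorted by scatter were sequenced by a modified CEL-Seq2. The authors deposited whole-number UMI counts per gene and well, 1 table for each arm, and per the submitters' processing notes kallisto, bustools, Seurat 3.1.5 and the build GRCm38 were used, with no step order given. Counts of wells with at least 1000 UMIs were summed per plate. Plates of days 0 to 6 of both arms (35) were fitted with edgeR 4.0.16 (R 4.3.3) after TMM scaling, with p-values adjusted over 8766 genes, and the interaction with day 0 came from the same fit. limma 3.58.1 and DESeq2 1.42.0 were the other packages used. Plates left out in turn, other scaling, filters, well minimums, thinning, DESeq2, fewer days and a replicate block were tried, and the fit without 7 gene models such as Gm10800 was added after seeing the data. The fit was tested on simulated data. Precision is set by the plate totals, and intervals cover counting error only.

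The gene lists and named genes were chosen with earlier results of these data known. Genes named for the largest changes overall were called, abundant and apart between arms on both days. Those named for the largest changes per list only had to be called on days 2 and 3. They include low genes such as Chac1 and genes that overlap on a day, such as Ccl20. The naming rule also takes 20 genes of prior interest. The text gives a selection of all these genes, made after their values were seen. Psat1, Herpud1, Atf4, Gclc, Nqo1, Gstm1, Krt20, Igfbp4, Rgmb, Mgam, AW112010, Car8, Mxd1, Ubd, Cd74 and Ube2c fall outside that rule and were picked with their values in view. Gp2 and Tnfaip2 were not analysed here. Wells carry no barcodes, so shared barcodes were not compared, and no doublet caller was run. Wells over 3 times their plate's median UMIs numbered 4 of 570 with RANKL+CSRM617 and 0 of 1508 with RANKL on days 2 and 3. Plates with the same number in the 2 arms had correlations of -0.0129 to 0.171, and plates with different numbers -0.171 to 0.111. With 2 RANKL+CSRM617 plates per day, their deviations mirror each other, so these correlations cannot settle whether plates pair.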

Additional observations from a re-analysis of the deposited data

Results flagged for a closer look

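Results are listed here where the difference between the arms (RANKL+CSRM617 minus RANKL, log2) itself differed between days, by a test of that interaction in the edgeR fit. From day 2 to day 3 it changed by 2.70 in AW112010, 2.63 in Ubd, 2.07 in Car8 and 1.79 in Mxd1. From day 0 to days 2 and 3 it changed upward among a selection of the named genes, from the highest, in Oasl2 (5.34), Chac1 (4.33), Mt2 (3.45), Bmp2 (3.40), Krt20 (3.31), Ccl20 (2.97), Anpep (2.78), Tsku (2.69), Srxn1 (2.57) and Mt1 (2.25). Smaller upward changes were those of Gstm1 (2.20), Serpinb1a (2.14), Asns (2.10), Creb3l3 (1.99), Ugdh (1.99), Gclc (1.90), Cdkn1a (1.83), Nqo1 (1.77), Aldh1a7 (1.64) and Mthfd2 (1.61). The least of the upward changes named were those of Herpud1 (1.60), Serpinb6a (1.56), Vil1 (1.42), Anxa5 (1.33), Msmo1 (1.07), Psat1 (1.06) and Scd1 (1.02). It changed downward in Aqp4 (-2.30), Lgr5 (-2.17), Pigr (-1.68), Cenpa (-1.58), Wls (-1.52), Hnrnpa1 (-1.40), Smoc2 (-1.11), Pdcd4 (-1.10) and Slc12a2 (-1.05). These are orders among the genes named in the text, and 367 of all tested genes changed upward. Their plate values, and the plates on which some of these calls rest, stand with each gene in the results. In data outside the comparison, 545 genes of the RANKL table that are not in the other table reached 10 CPM or more on days 2 and 3.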

How the results depend on the processing

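Across 25 alternatives, 15 of them leaving out 1 plate each, 1708 pairs of a named gene and an alternative kept direction and side of the threshold in the test of days 2 and 3, 25 no longer passed, 13 newly passed and 1 turned its direction. Among the same genes, 34 such pairs lost the call of the day 0 test and 8 gained one, 47 lost and 8 gained the change from day 0, and 23 lost the step from day 2 to day 3. The count of genes called on days 2 and 3, 2150, was 976 with every well thinned to 1000 UMIs, where 6331 genes were tested, and 1438 to 2216 with single plates left out. The day 0 count, 241 higher and 620 lower, was 358 thinned and 445 to 881 with single plates left out. The count of changes from day 0, 591, was 188 thinned and 276 to 623 with single plates left out. The count of steps from day 2 to day 3, 4, was 16 with DESeq2, 7 with a minimum of 500 UMIs, 17 with only days 0, 2 and 3 fitted, and 1 to 7 with single plates left out. Rgs13 was -0.56 (log2) with a minimum of 2000 UMIs per well. The causes of these moves were not tested, beside the fewer genes and UMIs of thinned wells. With replicate number as a block, 2003 genes were called on days 2 and 3, 801 on day 0, 548 changed from day 0 and 3 stepped between days. Whether these numbers pair plates across the arms was not settled. With the block the calls of Onecut2 on days 2 and 3 and of Mxd1 between days did not pass. The share of calls that were higher was 49.86%, and 42.8% to 50.1% over alternatives. Depth limits the low genes, such as Sox8, Clca1 and Rgs13, on day 0.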
